A study of Homo sapiens with 6 samples.

Results

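The aminoacyl tRNA synthetases are the enzymes that load each tRNA with its amino acid. They were chosen by gene name alone, as every listed gene named for a synthetase of the cytosol or the mitochondrion, together with the scaffold proteins AIMP1 and AIMP2. This gave 40 of the 26255 genes in the table, made up of 21 genes for cytosolic enzymes or their subunits, 17 for mitochondrial enzymes and 2 for scaffold proteins. Their RNA was measured in NCI-H1299, an established human lung cancer line, in 6 libraries of total RNA made with a stranded kit. The 3 shControl libraries came from cells with the plasmid pSilencer2.1-U6-neo carrying a control shRNA, and the 3 shEphexin1 libraries from cells with the same plasmid carrying an shRNA against Ephexin1. The study's methods name the hygromycin resistance form of the same plasmid in place of the neomycin form that the labels give, so the resistance gene is uncertain. Both groups carried the plasmid with a short hairpin under its U6 promoter, and no cells without a plasmid are among these samples. Ephexin1, encoded by NGEF, is a guanine nucleotide exchange factor, a protein that switches on small GTPases, and the comparison asked which transcripts differ when it is depleted. The library names of the shEphexin1 samples share a stem, so they may come from 1 clone, and they used a single hairpin. No label said that the 3 libraries of a group were separate cultures, so the p-values measure only the spread between these libraries, which may be technical.

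Each synthetase joins an amino acid to adenosine monophosphate and then passes it to the end of the matching tRNA, which carries it to the ribosome. Human cells keep separate sets for the cytosol and the mitochondrion, and in a few cases a single gene serves both. Several cytosolic enzymes sit together with AIMP1, AIMP2 and EEF1E1 in the multisynthetase complex. Many genes of the cytosolic set are known targets of ATF4, the transcription factor that rises when uncharged tRNA or other stress activates the kinases of the amino acid response.

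Values are FPKM, fragment numbers scaled by transcript length and library size, as deposited. Differences are log2 fold changes of shEphexin1 minus shControl on the log2(FPKM + 0.1) scale, which understates the change of low genes. The 16020 genes that reached 0.1 FPKM in 3 or more libraries were tested with limma, and p-values were adjusted over all of them by Benjamini-Hochberg. Where 3 values of a group are given, they are those of replicates 1, 2 and 3, and shControl comes first. A gene passed the test at an adjusted p of at most 0.025. The files give no read counts, so the depth behind a value is unknown. All 40 synthetase and scaffold genes passed the filter.

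NGEF measured 13.3, 11.7 and 16.4 FPKM in the control libraries and 9.81, 8.25 and 10.5 FPKM with the Ephexin1 hairpin. All shEphexin1 libraries lay below all shControl libraries, with a log2 fold change of -0.53 (SE 0.163, adjusted p = 0.103). Groups so separated have a two-sided exact permutation p of 0.1, the smallest that 3 libraries against 3 can give. Among markers of the line, VIM ranged from 1980 to 2670 FPKM and EPCAM from 0 to 0.220 FPKM, so the epithelial marker EPCAM was near 0. KRT8 and KRT18 were lower in shEphexin1, with adjusted p-values of 0.0304 and 0.0439. Of 7 markers of blood, vessel, alveolar and liver cells, 0 passed the filter, PTPRC and CD3E were listed at 0 in all 6 libraries, and the highest value of any was 0.276 FPKM. Replicate 2 of both groups stood apart from the other libraries. Across genes, the deviation of a gene from its group mean had a Spearman correlation with the gene's GC content of -0.688 and -0.759 in those libraries and of 0.335 to 0.665 in the other 4. Results are therefore also given for replicates 1 and 3 alone, 2 libraries a group.

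Of the 21 cytosolic enzyme genes, 18 had a negative log2 fold change in shEphexin1, with a median of -0.13 (-0.034 under quantile normalization, 0.018 after scaling to the library FPKM sum), while the 17 mitochondrial genes were spread around 0. Of the 40 genes, 28 had a negative and 12 a positive log2 fold change, with a median of -0.12 against -0.0093 over all genes tested and a range from -0.60 to 0.20. Under quantile normalization the split was 21 negative to 19 positive and the median -0.025. The deposited values do not sum to the same total in each library, and the sum of all FPKM in shEphexin1 was 90.3% of that in shControl. Scaling every library to its FPKM sum, an alternative chosen after seeing the data, moved the median of all genes to 0.13 and that of the 40 genes to 0.024, with 18 negative and 22 positive. The direction of the less changed genes thus depends on how the libraries are scaled, while the median of the 40 genes was below that of all genes under each of these scalings. The values are relative to the other RNA of a library, so fewer transcripts per cell and a smaller part in the RNA pool cannot be told apart, nor can fewer cells of a kind and less RNA in each.

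At an adjusted p of at most 0.025, 0 of the 40 genes passed in either direction. Of all genes tested, 2.15% passed as lower and 1.25% as higher. The count depends on the model. With the replicate number as a block, a pairing that is uncertain, 11 of the 40 were lower, as were 2509 of the 16020 genes tested. After scaling to the library FPKM sum the calls over all genes shifted from 345 lower and 201 higher to 210 lower and 354 higher, and 0 of the 40 genes passed. At an unadjusted p of at most 0.05, 9 genes were lower (22.5%, against 12.8% of all genes) and 0 were higher (10.5% of all genes were). At an adjusted p of at most 0.05, 5 genes were lower, namely YARS2, TARS, NARS, GARS and KARS, and 0 were higher. These 5 are 12.5% of the synthetase genes, against 4.32% lower and 2.69% higher among all genes. The count rested on all libraries but shEphexin1 replicate 2. It was 5 without that library (GARS, IARS, NARS, TARS and YARS2), with IARS in place of KARS. Without shControl replicate 2 it was 1 (EARS2), and without any one of the other 4 it was 0. It was 1 under quantile normalization (YARS2) and 0 after scaling to the library FPKM sum. None reached a fold difference of 2, which together with an adjusted p of at most 0.025 was met by 1.89% of all genes.

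The groups did not overlap for 9 genes that were lower in all shEphexin1 libraries (22.5%, against 15.4% of all genes) and for MARS2, which was higher in all of them (12.8% of all genes were). With replicates 1 and 3 alone, 9 genes fell at an adjusted p of at most 0.025 (22.5%, against 6.67% of all genes) and 0 rose (3.95% of all genes did). Both counts hold the same 9 genes, YARS2, AIMP2, NARS, EARS2, TARS, MARS, GARS, KARS and IARS. Because their groups did not overlap, all 9 were necessarily lower in replicate 2 too, so this adds no separate support. In replicate 2, 26 of the 40 genes were lower. Their log2 fold changes lay between -0.60 and -0.38, between -0.54 and -0.24 under quantile normalization, and between -0.45 and -0.24 after scaling to the library FPKM sum.

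**Figure D1:**
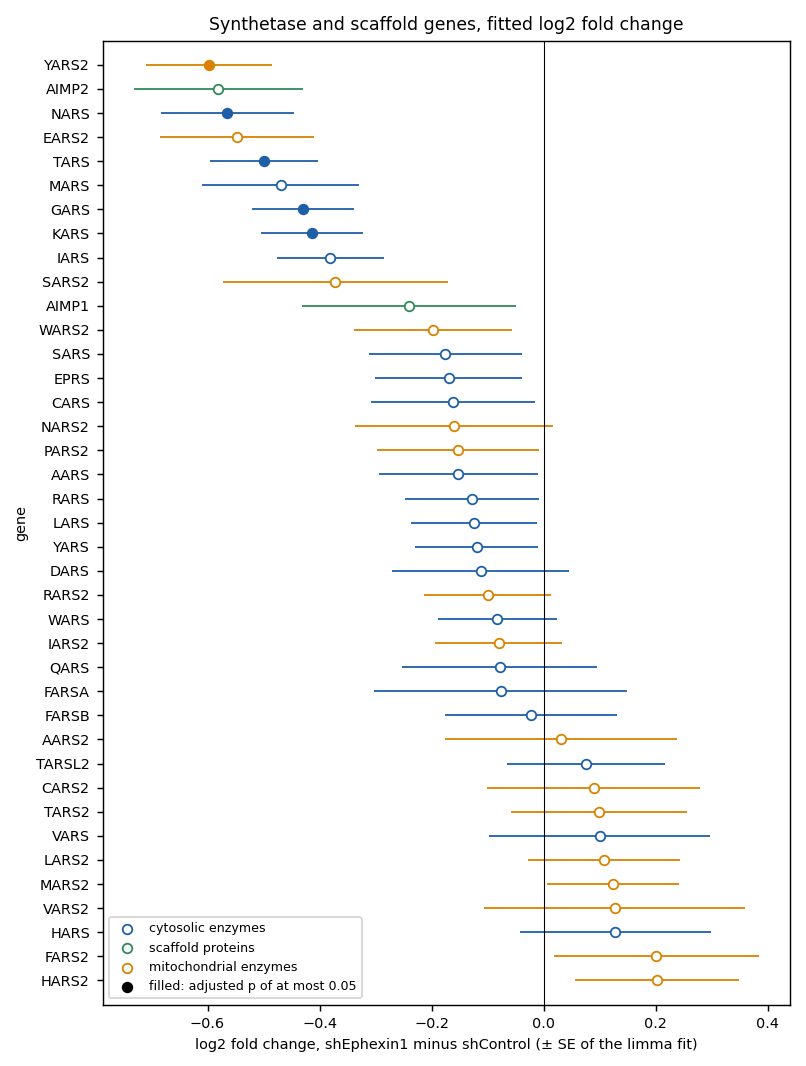
Log2 fold change (shEphexin1 minus shControl) of 39 of the 40 genes with the SE of the limma fit as bars, ordered by value, coloured by set and filled for an adjusted p of at most 0.05. The genes run from YARS2 at -0.60 to HARS2 at 0.20, and the 5 filled points all lie below 0.

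The cytosolic enzymes outside the multisynthetase complex held 3 of the 5 genes that met the looser threshold of 0.05. NARS, which charges tRNA with asparagine, was at 80.5, 94.0 and 81.7 FPKM under shControl, compared with 57.2, 64.1 and 52.1 FPKM under shEphexin1. The highest shEphexin1 library was well below the lowest shControl library, and the log2 fold change was -0.56 (SE 0.119, adjusted p = 0.0360). TARS, the threonine enzyme, stood at 75.5, 79.9 and 74.3 FPKM in shControl against 52.6, 57.9 and 51.9 FPKM. Its libraries were tightly grouped within each condition, at 76.6 ± 2.92 and 54.2 ± 3.28 FPKM (SD, n = 3), and differed by -0.50 on the log2 scale (SE 0.0963, adjusted p = 0.0288). GARS, the glycine enzyme of both cytosol and mitochondrion, had 111, 120 and 113 FPKM in the shControl libraries against 85.6, 87.9 and 82.0 FPKM in the shEphexin1 libraries. Every shEphexin1 value was below every shControl value, at -0.43 on the log2 scale (SE 0.0910, adjusted p = 0.0362).

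The other 10 cytosolic genes outside the complex, AARS, CARS, FARSA, FARSB, HARS, SARS, TARSL2, VARS, WARS and YARS, overlapped between the groups, with log2 fold changes from -0.18 in SARS to 0.13 in HARS. WARS, the tryptophan enzyme, which is also known as an interferon-induced gene, measured 62.2, 57.2 and 64.7 FPKM in the control libraries and 61.2, 53.0 and 59.9 FPKM with the Ephexin1 hairpin. Its difference of -0.083 had a 95% interval from -0.33 to 0.16. HARS, the histidine enzyme, stood at 50.8, 42.9 and 56.1 FPKM against 60.5, 43.2 and 61.1 FPKM, and was the most positive of the cytosolic set at 0.13 (adjusted p = 0.713).

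All 10 synthetase and scaffold genes of the multisynthetase complex, counted without EEF1E1, had negative log2 fold changes, from -0.58 to -0.079 with a median of -0.21, although RARS, LARS and QARS turned positive under quantile normalization and these and DARS after scaling to the library FPKM sum. In 4 of them, AIMP2, MARS, KARS and IARS, no library of one group reached the other (40%, against 15.4% of all genes lower without overlap). At an adjusted p of at most 0.05 in limma, 1 of the 10 was lower. KARS, the lysine enzyme of cytosol and mitochondrion, was at 144, 135 and 150.0 FPKM under shControl, compared with 107, 106 and 109 FPKM under shEphexin1. Its shEphexin1 values lay close together at 75.0% of the control mean, with a log2 fold change of -0.41 (SE 0.0908, adjusted p = 0.0398). IARS, the isoleucine enzyme, had 144, 150.0 and 139 FPKM in the shControl libraries against 110.0, 118 and 104 FPKM in the shEphexin1 libraries. The groups were apart in every library, and the difference of -0.38 (SE 0.0955, adjusted p = 0.0585) did not pass with all libraries but did with replicates 1 and 3 alone (adjusted p = 0.0164).

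MARS, the methionine enzyme, was outside the rule for genes given in full and was added after its values were seen. It measured 100, 86.6 and 112 FPKM in the control libraries and 76.6, 61.6 and 77.2 FPKM with the Ephexin1 hairpin, with a log2 fold change of -0.47 (SE 0.140, adjusted p = 0.0936). Replicate 2 was the lowest library of each group, and the 2 groups did not overlap. EPRS, the bifunctional enzyme for glutamate and proline, was at 51.6, 61.8 and 49.0 FPKM under shControl, compared with 45.6, 54.0 and 44.5 FPKM under shEphexin1. Its groups overlapped, since shEphexin1 replicate 2 was above 2 shControl libraries, and its difference of -0.17 had a 95% interval from -0.48 to 0.14. The other 4 enzymes of the complex, RARS, LARS, DARS and QARS, lay between -0.13 and -0.079 with adjusted p-values from 0.572 to 0.839.

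The scaffold proteins, which hold the complex together, were the set with the lowest median difference, -0.41 over 2 genes. AIMP2 had 23.4, 21.3 and 25.6 FPKM in the shControl libraries against 17.6, 12.9 and 16.7 FPKM in the shEphexin1 libraries. No library of one group reached the other, and the log2 fold change was -0.58 (SE 0.150, adjusted p = 0.0640). AIMP1 stood at 22.7, 25.8 and 19.7 FPKM against 18.1, 24.8 and 15.5 FPKM. In it replicate 2 was the highest library of both groups, the groups overlapped, and the difference was -0.24 (SE 0.191, adjusted p = 0.514). EEF1E1, the third scaffold protein of the complex, belongs to the list of partner genes and stood at 37.7, 47.4 and 39.1 FPKM against 30.2, 45.4 and 31.2 FPKM (log2 fold change -0.23, adjusted p = 0.497).

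Of the 17 mitochondrial enzymes, 8 had negative and 9 positive log2 fold changes, with a median of 0.031 that became -0.047 with replicates 1 and 3 alone. YARS2, the mitochondrial tyrosine enzyme, had the most negative difference of all 40 genes. It measured 24.2, 22.7 and 24.4 FPKM in the control libraries and 16.0, 14.2 and 16.9 FPKM with the Ephexin1 hairpin. All shEphexin1 libraries were lower by a wide margin, with a log2 fold change of -0.60 (SE 0.112, adjusted p = 0.0263), just short of the threshold of 0.025. EARS2, the mitochondrial glutamate enzyme, was at 12.1, 9.58 and 12.1 FPKM under shControl, compared with 7.43, 7.33 and 8.09 FPKM under shEphexin1. Its groups were apart as well, at -0.55 (SE 0.137, adjusted p = 0.0582).

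The genes with the most positive differences were mostly mitochondrial. HARS2, the histidine enzyme, had 16.0, 13.7 and 18.3 FPKM in the shControl libraries against 18.9, 16.3 and 19.9 FPKM in the shEphexin1 libraries (log2 fold change 0.20, adjusted p = 0.464). FARS2, the phenylalanine enzyme, stood at 8.06, 5.38 and 7.96 FPKM against 8.45, 7.34 and 8.51 FPKM (0.20, adjusted p = 0.574). In both genes the groups overlapped only through replicate 2 of shEphexin1, which lay below at least 1 shControl library. VARS2, the valine enzyme, stood at 14.3, 9.92 and 15.8 FPKM against 16.5, 10.8 and 16.4 FPKM (0.13, adjusted p = 0.802). MARS2, the methionine enzyme, stood at 7.60, 7.26 and 7.38 FPKM against 7.88, 7.65 and 8.75 FPKM (0.12, adjusted p = 0.590). MARS2 alone was higher in every shEphexin1 library, and the 95% interval of its difference ran from -0.15 to 0.40. The remaining 11 mitochondrial genes, which include SARS2 at -0.37 (adjusted p = 0.322) and the 3 least expressed genes, overlapped between the groups, and their log2 fold changes reached 0.11.

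**Figure D2:**
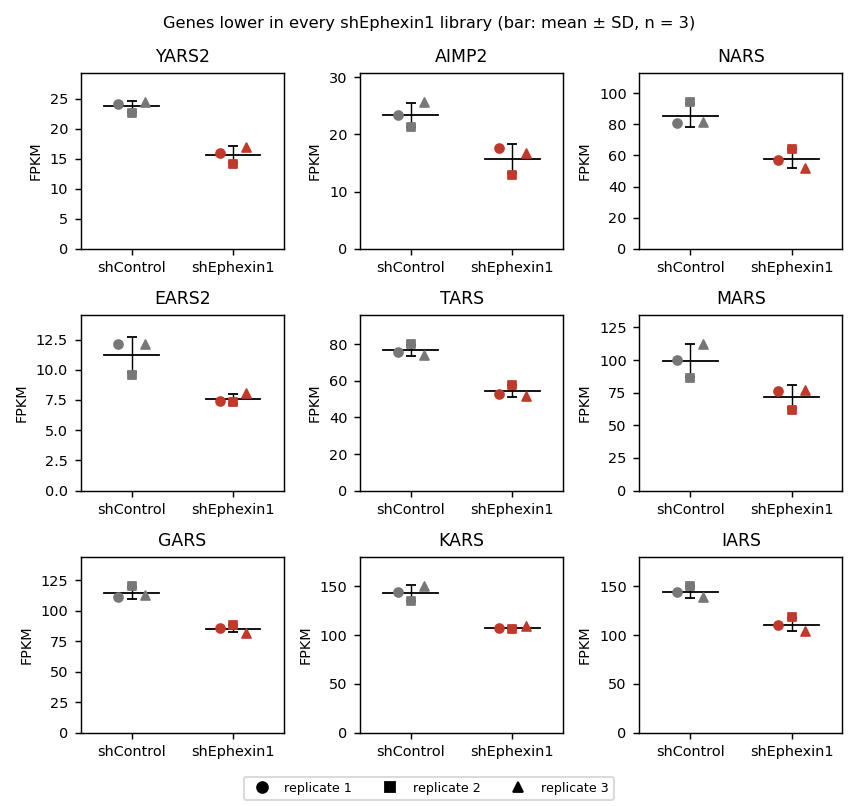
FPKM of the 9 genes whose groups did not overlap and were lower in shEphexin1, 1 panel a gene, with 3 shControl and 3 shEphexin1 libraries as points, the group mean as a line and the SD as a bar. In each panel every shEphexin1 point sits below every shControl point.

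FPKM is scaled by transcript length, so levels can be set side by side between genes. The GC trend differed between these libraries, so such comparisons are rough for genes of unlike GC content. The highest mean levels over the 6 libraries belonged to IARS (127 FPKM), KARS (125 FPKM) and GARS (100 FPKM), and all 3 were among the 9 lower genes. IARS and KARS did not differ beyond their spread, since their libraries overlapped in both groups. The lowest levels belonged to mitochondrial enzymes. PARS2, for proline, measured 3.14, 3.43 and 3.51 FPKM in the control libraries and 2.78, 2.93 and 3.33 FPKM with the Ephexin1 hairpin. NARS2, for asparagine, stood at 3.96, 5.86 and 5.24 FPKM against 4.18, 4.83 and 4.29 FPKM. WARS2, for tryptophan, stood at 5.20, 6.28 and 5.11 FPKM against 4.64, 5.14 and 4.61 FPKM. The groups overlapped for all 3, and NARS2 and WARS2 overlapped each other in level.

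The median level was 58.5 FPKM for the cytosolic enzymes, from 5.64 in TARSL2 to 127 in IARS, and 11.2 FPKM for the mitochondrial enzymes, from 3.19 in PARS2 to 52.3 in IARS2. Summed over their 21 genes, the cytosolic enzymes reached 1436, 1423 and 1496 FPKM under shControl, compared with 1239, 1212 and 1235 FPKM under shEphexin1, or 84.6% of the control mean. The mitochondrial sum was 296, 276 and 303 FPKM against 279, 268 and 282 FPKM, or 94.8%. The cytosolic sums were apart between the groups while the mitochondrial sums overlapped. As a percent of the FPKM sum of its library, which was itself lower in shEphexin1, the cytosolic set took 0.229, 0.254 and 0.230 under shControl and 0.222, 0.235 and 0.210 under shEphexin1, and these shares overlapped. The mitochondrial shares, 0.0465 to 0.0492 against 0.0481 to 0.0520, overlapped too.

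Of the 21 cytosolic genes, 16 were set against the mitochondrial gene for the same amino acid within a library, EPRS against both EARS2 and PARS2, which cancels the scaling between libraries. A ratio does not cancel the GC trend where the 2 genes differ in GC content. The other 5, GARS, KARS, QARS, FARSB and TARSL2, were not paired. In all 17 pairs the cytosolic gene had the higher FPKM in all 6 libraries, by up to 19.9 times for NARS over NARS2. The ratio was lower in every shEphexin1 library for 5 pairs and higher in every one for 1 pair, YARS to YARS2, and it overlapped for 11. The log2 ratio differed by -0.60 for TARS to TARS2, -0.59 for MARS to MARS2, -0.40 for NARS to NARS2, -0.30 for IARS to IARS2 and -0.25 for CARS to CARS2, and by 0.48 for YARS to YARS2. For each of these 6 the two-sided exact permutation p was 0.1, or 0.271 adjusted over the 19 ratios compared. The summed cytosolic to mitochondrial log2 ratio was 2.32 ± 0.0447 in shControl and 2.15 ± 0.0239 in shEphexin1 (SD, n = 3), lower in every shEphexin1 library (exact permutation p = 0.1).

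FARSA and FARSB encode the alpha and beta subunits of the single cytosolic phenylalanine enzyme. FARSA was at 51.1, 36.8 and 58.9 FPKM under shControl, compared with 47.8, 35.1 and 56.3 FPKM under shEphexin1, and FARSB at 23.3, 31.0 and 26.3 FPKM against 26.6, 30.0 and 22.6 FPKM. The FARSA to FARSB ratio ran from 1.17 to 2.48 over the libraries, and both of its lowest values were in replicate 2. Between the groups its log2 value differed by -0.054 (exact permutation p = 0.9). FARSA has a GC content of 60.3% and FARSB of 40%.

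**Figure D3:**
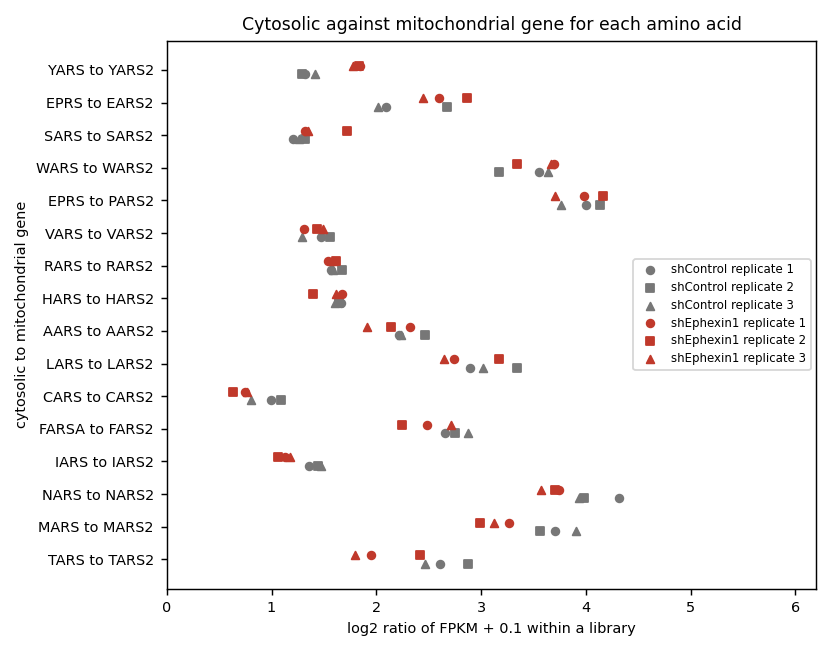
Log2 ratio of the cytosolic gene to the mitochondrial gene for the same amino acid within each library, for 16 of the 17 pairs, with 3 shControl and 3 shEphexin1 points a pair. All plotted ratios are above 0, and the TARS, MARS, NARS, IARS and CARS pairs have all shEphexin1 points to the left of the shControl points.

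The GC trend of replicate 2 was plain within the synthetase genes. Over the 40 genes, the Spearman correlation between GC content and the deviation from the group mean was -0.875 in shControl replicate 2 and -0.882 in shEphexin1 replicate 2, and 0.478 to 0.901 in the other libraries, which share the same group means. Against the mean of replicates 1 and 3, the 16 genes under 45% GC had a median log2 difference of 0.17 in shControl replicate 2 and 0.23 in shEphexin1 replicate 2. The 19 genes from 45% to 55% GC had medians of -0.25 and -0.21, and the 5 genes at 55% GC or more had -0.44 and -0.57. The shift had the same direction in both groups. The 9 lower genes had GC contents from 38.9% in GARS to 53.8% in MARS. After a correction for GC content and transcript length, 10 of the 40 genes passed as lower, as did 2154 of the 15208 genes it covered. The 10 were the 9 lower genes and SARS2. Since the 9 had been picked as lower from these same libraries, their passing adds no separate support. Without the correction, 345 of the 16020 genes tested passed as lower.

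**Figure D4:**
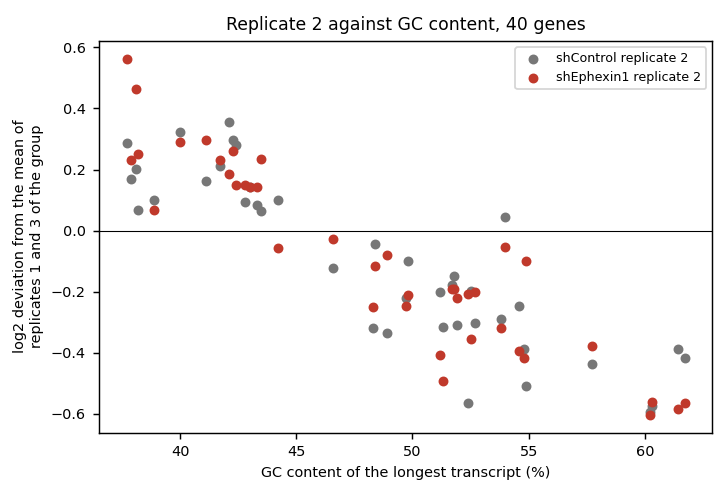
Log2 difference of replicate 2 from the mean of replicates 1 and 3 of its own group, against the GC content of the gene in percent, for the 40 genes in shControl and shEphexin1. Points fall from above 0 under 45% GC to below 0 over 55% GC in both groups.

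Several of the 9 genes lie on chromosome arms whose expressed genes were lower as a whole. On GRCh37, YARS2 lies at chr12:32880424-32908831 and NARS at chr18:55267888-55289445, both on the minus strand. Over expressed genes, those that averaged 1 FPKM or more, the arm's median difference on the log2 scale was -0.43 over 169 genes of arm 12p, where YARS2 lies, and -0.44 over 123 genes of arm 18q, where NARS lies. It was -0.26 on 5p, which holds TARS, and -0.25 on 7p, which holds GARS and AIMP2. With the median of the arm subtracted, YARS2 was at -0.17, NARS at -0.12, GARS at -0.18, TARS at -0.24 and AIMP2 at -0.33. EARS2 on 16p and KARS on 16q lie on arms with medians of -0.063 and 0.015, and stood at -0.48 and -0.43 after subtraction. All 9 kept a negative value, from -0.48 to -0.12. They had been picked as lower from these same libraries, so this adds no separate support. Over all synthetase and scaffold genes, 28 were negative and 12 positive after subtraction. SARS2 (-0.36), WARS2 (-0.24) and AIMP1 (-0.24), whose groups overlapped, then lay below NARS, YARS2 and GARS. The 9 thus no longer stood apart as a set, although EARS2 and KARS remained below SARS2. The part of the arms in the differences was not tested further.

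Some of the 9 genes overlap a neighbour on the opposite strand, and the sources used here do not say whether strand was used in counting, so such reads cannot be told apart. MARS overlaps DDIT3, AIMP2 overlaps EIF2AK1, KARS overlaps TERF2IP, and GARS, YARS2 and EARS2 have such neighbours too. EARS2 also overlaps GGA2, and YARS2 other annotated genes, on the same strand, where strand would not separate the reads. NARS, IARS and TARS overlap no other annotated gene. NARS and TARS, both with an adjusted p of at most 0.05, are thus free of such neighbours.

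Promoters were searched for the core of the C/EBP-ATF response element, the sequence at which ATF4 and its partners are known to bind. The search was chosen after the differences were seen. It used RefSeq promoters on GRCh38.p14, from 250 bases before to 50 bases after the transcript start, and the letters TGATGNAA on either strand, where the other strand reads TTNCATCA. Of 32 synthetase and scaffold genes with a promoter entry, 8 held a match (25%), against 3.62% of all 35116 promoters and 4.46% of all 27305 genes. The 8 are shown with ASNS and CHAC1, classical genes of the amino acid response, so that the matches can be compared. These were the 2 with a match among 6 lower genes of the other lists that were searched, and TRIB3, PSAT1, XPOT and DDIT4 had none. Each line gives 28 bases read 5′ to 3′ along the gene's own strand, with the match in capitals.

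TARS: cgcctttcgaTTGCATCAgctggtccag
GARS: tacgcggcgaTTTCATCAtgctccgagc
IARS: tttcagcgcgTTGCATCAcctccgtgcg
CARS: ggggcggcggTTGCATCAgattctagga
YARS2: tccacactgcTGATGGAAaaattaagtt
MARS: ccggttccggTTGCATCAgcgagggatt
AARS: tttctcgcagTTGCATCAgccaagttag
NARS: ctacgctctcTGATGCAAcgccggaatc
ASNS: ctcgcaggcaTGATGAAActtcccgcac
CHAC1: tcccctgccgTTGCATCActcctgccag

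The windows lie at chr5:33440957-33440984 (plus strand) for TARS, chr7:30594835-30594862 (plus) for GARS, chr9:92293693-92293720 (minus) for IARS, chr11:3057408-3057435 (minus) for CARS and chr12:32756077-32756104 (minus) for YARS2. Those of MARS, AARS and NARS lie at chr12:57488054-57488081 (plus), chr16:70289676-70289703 (minus) and chr18:57621805-57621832 (minus), and those of ASNS and CHAC1 at chr7:97872459-97872486 (minus) and chr15:40953252-40953279 (plus). The letters TGATGCAA, read on either strand, were shared by TARS, IARS, CARS, MARS, AARS and NARS. In TARS, MARS, CARS and NARS the match lay at the start or within 22 bases after it, in IARS and GARS within 33 bases before it, and in AARS and YARS2 from -187 and -197. Of the 8 genes with a match, 6 were among the 9 lower genes, and their median log2 fold change was -0.45, from -0.60 in YARS2 to -0.15 in AARS. Of the 24 genes with a promoter entry and no match, 3 were among the 9 (AIMP2, EARS2 and KARS), and the median was -0.092. For the 8 genes with no promoter entry the median was 0.043. This split, like the search, was made after the differences were seen. With the median of the chromosome arm subtracted, the 8 genes with a match lay from -0.31 in IARS to -0.12 in NARS. The 24 without a match then lay from -0.48 in EARS2 to 0.19 in FARS2. Whether a match goes with a lower level was not tested.

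The count of matches depends on the letters. The stricter TGATGCAA was found in 6 of the 32 genes (18.8%, against 1.08% of all genes) and the looser TGANGNAA in 12 (37.5%, against 17.6%). The E-box CACGTG, bound by MYC and related factors, was found in 5 (15.6%, against 8.77%), namely AIMP2, CARS2, EARS2, IARS and MARS2. A match describes the letters and is neither a measured binding site nor a cause of a difference.

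Most genes of the amino acid response itself, a list drawn up for this pathway with earlier results known, also had negative differences. Of the 36 names in this list, 35 were in the table and 34 were tested. Their log2 fold changes were negative in 30 and positive in 4, with a median of -0.46. At an adjusted p of at most 0.025, 5 fell (14.7%, against 2.15% of all genes) and 0 rose. After scaling to the library FPKM sum 4 fell, without ASNS. At an adjusted p of at most 0.05, 7 were lower (20.6%, against 4.32%), and 20 were lower without overlap between the groups (58.8%, against 15.4%). With a library left out the count that fell was 0 without replicate 1 of either group, 1 without replicate 3 of either group, 2 without shControl replicate 2 and 4 without shEphexin1 replicate 2.

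ATF4 had 187, 185 and 202 FPKM in the shControl libraries against 134, 124 and 146 FPKM in the shEphexin1 libraries. The groups were far apart, at -0.51 on the log2 scale (SE 0.101, adjusted p = 0.0312). ASNS, which makes asparagine, the amino acid that NARS loads, stood at 121, 128 and 129 FPKM against 77.3, 80.1 and 70.0 FPKM. It fell by 0.73 on the log2 scale (SE 0.0964, adjusted p = 0.00830), in all 3 libraries. PSAT1, of serine synthesis, stood at 125, 131 and 131 FPKM against 61.8, 68.0 and 57.3 FPKM, and fell by 1.05 (adjusted p = 0.00283).

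TRIB3, a pseudokinase that restrains ATF4, measured 15.7, 12.9 and 16.9 FPKM in the control libraries and 6.83, 5.29 and 7.50 FPKM with the Ephexin1 hairpin, and fell by 1.21 (adjusted p = 0.0112). CHAC1, which degrades glutathione, stood at 13.6, 10.9 and 17.4 FPKM against 6.71, 3.94 and 5.44 FPKM, and fell by 1.37 (adjusted p = 0.0209). DDIT4, an inhibitor of mTORC1 signalling, stood at 44.3, 34.3 and 51.7 FPKM against 21.9, 13 and 20.3 FPKM, and fell by 1.25 (adjusted p = 0.0245). None of the 5 genes overlapped between the groups, and each changed more than any synthetase gene. ATF3 alone was higher in all shEphexin1 libraries, from 0.468 to 1.38 FPKM in shControl and from 1.64 to 2.27 FPKM in shEphexin1 (adjusted p = 0.103), and was named after its values were seen.

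**Figure D5:**
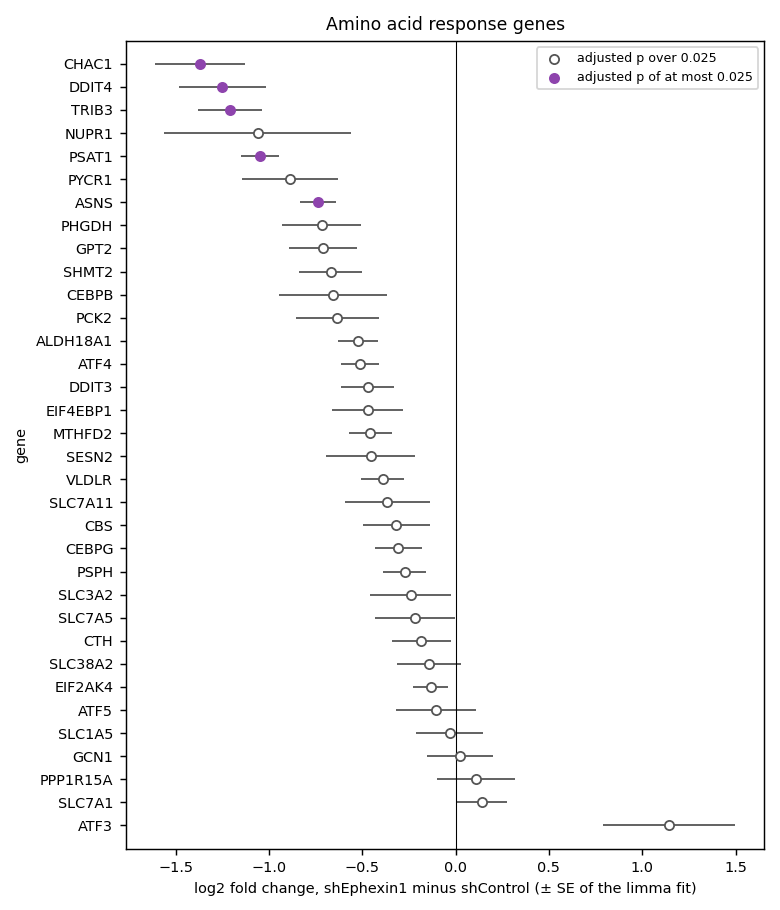
Log2 fold change (shEphexin1 minus shControl) of the 34 tested genes of the amino acid response list, with the SE of the limma fit as bars and filled points for an adjusted p of at most 0.025. Most points lie left of 0, and ATF3 lies farthest to the right, at 1.15.

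The partners of the synthetases, which export, mature, edit and carry tRNA, were divided in direction. Of 44 genes tested, 27 had a negative and 17 a positive log2 fold change, with a median of -0.061. At an adjusted p of at most 0.025, 1 fell and 0 rose, a share of 2.27% that is close to the 2.15% of all genes. This was XPOT, the exportin that carries tRNA out of the nucleus, which was at 96.3, 101 and 92.7 FPKM under shControl, compared with 58.8, 65.3 and 55.6 FPKM under shEphexin1. It fell by 0.69 on the log2 scale (SE 0.102, adjusted p = 0.0125), more than any synthetase gene, and its groups were far apart. With a library left out, it passed only without shEphexin1 replicate 2, and it did not pass after scaling to the library FPKM sum (adjusted p = 0.0650). At an adjusted p of at most 0.05, 2 partner genes were lower (4.55%, against 4.32% of all genes). The groups did not overlap for 12 that were lower (27.3%, against 15.4%) and for 4 that were higher (9.09%, against 12.8%).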

How the data were processed

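RNA was measured in 3 shControl and 3 shEphexin1 libraries of H1299 cells. The authors demultiplexed reads with bcl2fastq 2.20, mapped them to GRCh37/hg19 with TopHat2 2.0.13 and Bowtie, and deposited FPKM per gene and library from Cuffdiff of Cufflinks 2.2.1, with geometric library normalization and pooled dispersion. The gene annotation and the use of strand in counting are not given in the sources used here. Groups came from the sample labels, and 0 value columns were left out. Depth is unknown without counts, so no counting interval is given.

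Values were transformed as log2(FPKM + 0.1) and genes that reached 0.1 FPKM in 3 or more libraries were compared with limma 3.58.1 (lmFit, eBayes with trend) in R 4.3.3. Standard errors and 95% intervals are those of this model. Ratios were compared with two-sided exact permutation tests in scipy 1.17.1, and plots were drawn with matplotlib 3.10.9. For NGEF the permutation p follows from the complete separation of its groups. The fit was tested on simulated data with independent noise in each gene and library. That simulation lacks the GC trend of these libraries, so the fit was not tested under such a trend. GENCODE release 44 on GRCh37 gave a position for all 40 names, through older symbols where needed. Full values were given where the adjusted p reached 0.05, for the 5 most positive and 5 most negative differences, the 3 highest and 3 lowest levels, EPRS, FARSA, FARSB, WARS, AIMP1, AIMP2 and genes on arms 7q, 12p, 18p and 18q. Of the other lists they were given where it reached 0.025, and for ATF4, ASNS, EEF1E1 and XPOT. The genes, lists and tests were chosen with earlier results of these data known. The alternatives were other pseudocounts, filters, scalings and variance settings, a replicate block, replicates 1 and 3 alone, a GC and length correction, subtraction of arm medians, scaling to the library FPKM sum (added after seeing the data) and each library left out in turn. The results of 1 synthetase gene and 1 marker are counted in the totals and not otherwise reported here.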

Additional observations from a re-analysis of the deposited data

How the results depend on the processing

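No synthetase gene passed an adjusted p of at most 0.025 as reported. The count of lower genes was 1 with no filter on low values (GARS), 1 with median centring (YARS2), 9 with replicates 1 and 3 alone, 10 with the GC and length correction, 11 with the replicate block, 11 with both together and 5 with the looser threshold of 0.05. It was 0 to 2 with a library left out, the 2 being NARS and TARS without shEphexin1 replicate 2. The GC and length correction with the replicate block gave 1 higher gene (HARS2). Over all genes the lower and higher calls were 345 and 201 as reported, 2509 and 1614 with the replicate block, 2154 and 1354 with the GC and length correction, 2771 and 1687 with both, 1069 and 632 with replicates 1 and 3 alone, 262 and 125 with no filter, 210 and 354 after scaling to the library FPKM sum, and 37 to 363 and 23 to 222 with a library left out. Whether the replicate numbers pair the samples is uncertain. Same-numbered libraries deviated together with Pearson r = 0.0914, 0.43 and 0.328 over all genes. The check used asked for over 0.1 in each pair, which pair 1 just missed, so the reported fit has no block. Over the 40 genes alone r was 0.43, 0.868 and 0.785, all above 0.1. Replicate 2 of both groups had the same GC trend, which can raise r without any pairing, so these values do not settle the question. For the partner list, the 1 lower gene became 0 under quantile normalization, eBayes without trend and scaling to the library FPKM sum, 12 with the replicate block, 7 with replicates 1 and 3 alone, 7 with the GC and length correction, 11 with both corrections, 2 with the looser threshold of 0.05, and 0 to 1 with a library left out. Its higher genes, 0 as reported, became 3, 1, 2 and 3 with the block, replicates 1 and 3, the GC correction and both. For the amino acid response list, the 5 lower genes became 2 with no filter, 3 under eBayes without trend, 23 with the replicate block, 13 with replicates 1 and 3 alone, 22 with the GC and length correction, 24 with both and 0 to 4 with a library left out, and both corrections gave 1 higher gene.

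The median of the cytosolic enzymes, -0.13, was -0.034 under quantile normalization, 0.018 after scaling to the library FPKM sum and -0.21 to -0.064 with a library left out. That of the mitochondrial enzymes, 0.031, was 0.066 under quantile normalization, 0.18 after scaling to the library FPKM sum, -0.047 with replicates 1 and 3 alone, -0.025 with the GC and length correction with or without the block, and -0.072 to 0.044 with a library left out. NGEF passed with the replicate block (-0.53, adjusted p = 0.00284), with the GC and length correction (-0.61, adjusted p = 0.00100) and with both (-0.61, adjusted p = 0.00103), and ran from -0.64 to -0.40 with a library left out. Signs turned under quantile normalization for RARS (0.014), LARS (0.018), WARS (0.0096), IARS2 (0.0030), QARS (0.016), FARSA (0.0073) and FARSB (0.035), after scaling to the library FPKM sum for RARS (0.018), LARS (0.022), YARS (0.027), DARS (0.033), RARS2 (0.045), WARS (0.063), IARS2 (0.066), QARS (0.067), FARSA (0.069) and FARSB (0.12), with the GC and length correction, alone and with the block, for FARSB (0.048), AARS2 (-0.10), VARS (-0.083) and VARS2 (-0.028), and with replicates 1 and 3 alone for CARS2 (-0.047). With a library left out, signs turned for DARS (-0.27 to 0.012), QARS (-0.21 to 0.060), FARSA (-0.27 to 0.11), FARSB (-0.12 to 0.085), AARS2 (-0.15 to 0.16), TARSL2 (-0.032 to 0.15), CARS2 (-0.081 to 0.29), TARS2 (-0.0013 to 0.23), VARS (-0.040 to 0.29) and VARS2 (-0.072 to 0.33). None of these genes was among the 9 lower ones, which stayed negative under every alternative run. Since the groups of the 9 did not overlap, leaving a library out could not turn their sign. The highest adjusted p among the 9 was 0.323 under quantile normalization and 0.335 after scaling to the library FPKM sum. The scaling to the FPKM sum was chosen after seeing the data. The cause of these changes was not tested. Depth is unknown, so no limit from it can be given.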

Other observations

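The partner list holds 6 protein subunits of ribonuclease P, the enzyme that trims the leading end of tRNA. Of these, 0 passed an adjusted p of at most 0.025 in limma and the groups overlapped for 4, POP1 (log2 fold change -0.073), RPP14 (0.011), RPP38 (-0.021) and RPP25 (0.43). RPP30 measured 26.9, 31.2 and 26.1 FPKM in the control libraries and 18.8, 19.7 and 16.1 FPKM with the Ephexin1 hairpin (log2 fold change -0.62, adjusted p = 0.0343). RPP40 stood at 14.4, 11.3 and 12.5 FPKM against 18.4, 17.2 and 15.0 FPKM (0.41, adjusted p = 0.137). RPP30 was lower and RPP40 higher in every shEphexin1 library, as were 15.4% and 12.8% of all genes. TSEN15, of the tRNA splicing endonuclease, stood at 24.1, 24.9 and 23.8 FPKM against 16.7, 22.6 and 14.6 FPKM, and also did not overlap (-0.45, adjusted p = 0.156).

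MAF1, a repressor of RNA polymerase III, the enzyme that transcribes tRNA genes, was at 69.5, 50 and 78.2 FPKM under shControl, compared with 41.2, 27.8 and 47.1 FPKM under shEphexin1. Its groups did not overlap (-0.78, adjusted p = 0.0994), while the polymerase subunit POLR3A stood at 8.22 to 8.41 FPKM against 7.85 to 8.93 FPKM. EEF1A1, the elongation factor that carries charged tRNA to the ribosome, stood at 4760, 4720 and 4650 FPKM against 3360, 3770 and 3200 FPKM, apart in every library (-0.46, adjusted p = 0.0506). All of these genes were named after their values were seen.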
